A study of Mus musculus with 12 samples.

Results

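The nuclear genes for respiratory complexes II to V and their electron carrier cytochrome c were followed in mouse livers after oral silver nanoparticles. Members were chosen by symbol. They comprise Sdha to Sdhd, every symbol starting with Uqcr or Atp5, symbols starting with Cox and a digit from 4 to 8 plus a letter, and Cyc1 and Cycs, each on a probe set naming 1 symbol. Symbols marked -ps on the platform were left out, and the brightest probe set stood for each gene. The rule found 50 of the 30063 genes with such a probe set, and 47 of them were among the 19985 genes bright enough to be tested. Complex II had 4 members, complex III 9, complex IV 17 and ATP synthase (complex V) 16, with cytochrome c as 1 more. The last 3 share a symbol stem only. Dmac2 (Atp5sl on the platform) is a complex I assembly factor, Cox7a2l joins complexes into supercomplexes, and Atp5l2-ps (Atp5l2 on the platform) is now listed as a pseudogene.

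All 12 mice were 3 months old, their strain was C57BL/6J -Oca2p-un/J, and there were 2 females and 2 males in each of 3 groups of 4. Gavage was given once daily for 7 days. The controls received water, and the other groups received silver particles of 20 nm at 4 mg of silver per kg, coated either with citrate (cit-AgNP) or with polyvinylpyrrolidone (PVP-AgNP). Livers were frozen 24 h after the last dose, and total RNA from each was hybridised to 1 whole-transcript Affymetrix array.

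The mitochondrial respiratory chain passes electrons from metabolites to oxygen and pumps protons across the inner membrane, and ATP synthase uses the returning protons to make ATP. Complex II, succinate dehydrogenase, also catalyses a step of the tricarboxylic acid (TCA) cycle. Complex III hands electrons to cytochrome c, and complex IV, cytochrome c oxidase, passes them on to oxygen. Apart from complex II, which is wholly nuclear, each complex mixes many nuclear subunits with a few made inside the mitochondrion. Hepatocytes are rich in mitochondria.

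Values are log2 signals, so a difference of -1 stands for a halving. The labelled tissue matched its markers: of 10 hepatocyte markers, 9 lay above 19 on every array, 6 of these at the top of the scale throughout, and the hepatocyte factor Hnf4a lay between 11.10 and 12.11. No member reached the top of the scale (19.93), and the highest member value was 15.26. An area under the curve that separates exon from intron control probe sets, a measure of array quality, ran from 0.804 to 0.842 in controls, 0.814 to 0.827 with citrate, and 0.778 to 0.821 with PVP. The mean area was 0.802 ± 0.020 with PVP and 0.824 ± 0.016 in controls (SD, n = 4 each), which did not pass the test (exact permutation test, two-sided, p = 0.171). With 4 arrays a group the number of arrays limits the precision, and in whole liver fewer cells of a type and less RNA per cell cannot be told apart.

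With PVP-coated silver most members lay lower than in water controls, by 1.16- to 1.69-fold for those past an unadjusted p of 0.05, while none passed after adjustment over all genes. Complexes II, III and V held most of the lower members, and complex IV held fewer. With citrate-coated silver the members lay on both sides of the controls. Most members were also lower with PVP than with citrate. The log2 fold changes of all tested members against the controls are plotted by complex.

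**Figure D1:**
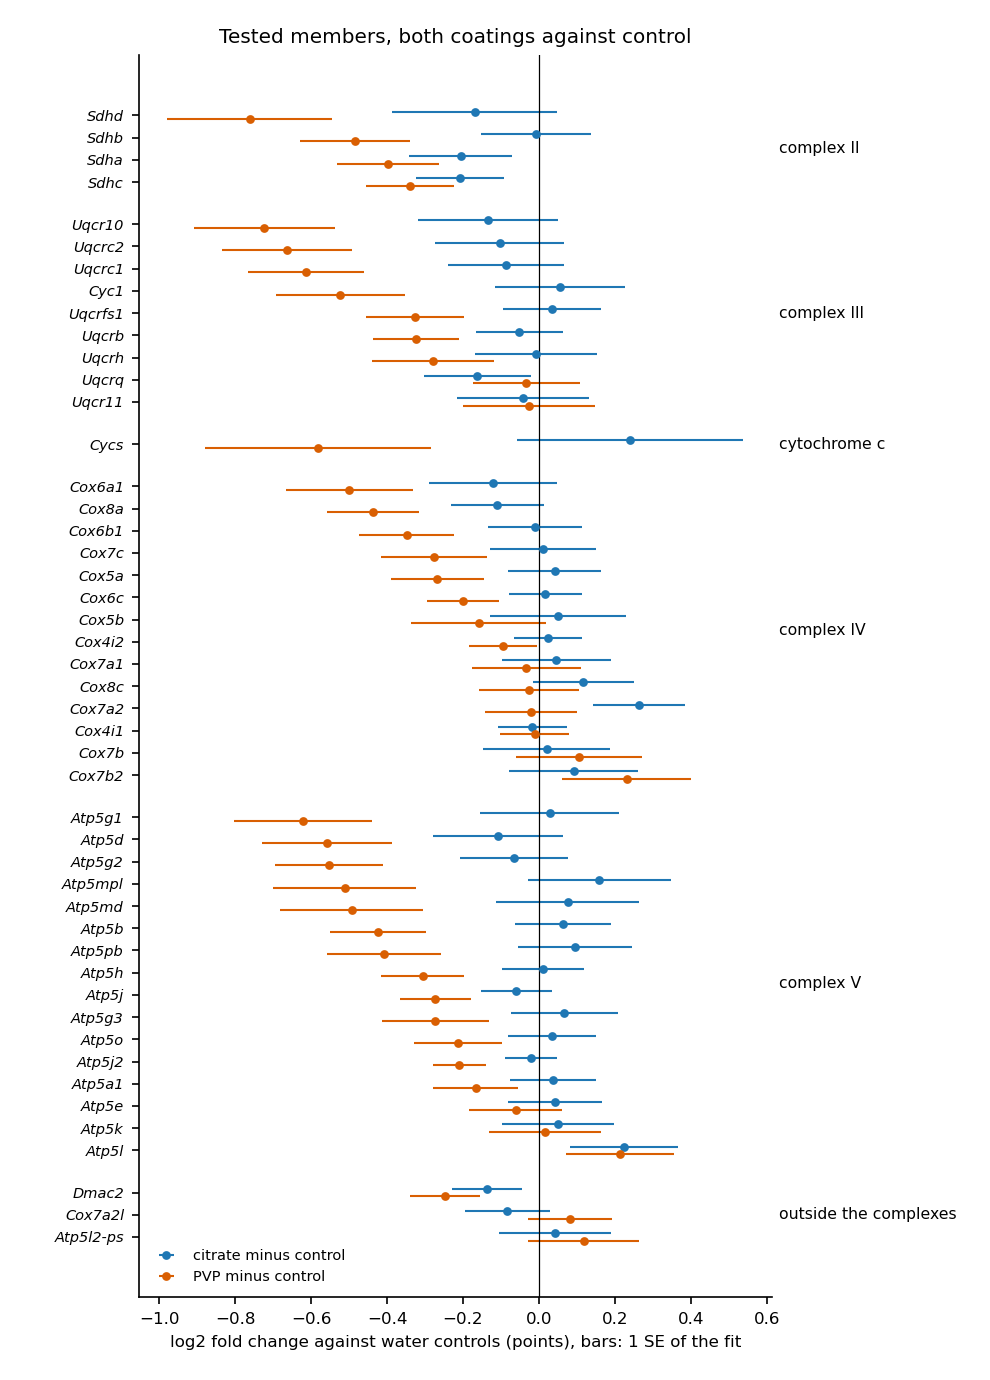
Log2 fold change against the water controls for the 47 tested members, with points for the fitted value and bars for 1 standard error (4 mice a group, blue citrate, orange PVP). All 4 complex II members and all 9 complex III members lie below 0 with PVP, whereas the citrate points lie around 0, from -0.21 to 0.26.

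In numbers, 24 of the 47 tested members were lower with PVP than in controls at an unadjusted p under 0.05 and 0 were higher, where 12.2% of all genes tested were lower and 8.05% higher. After Benjamini-Hochberg adjustment 0 members passed in limma, and 0.04% of all genes did (8 genes). The smallest adjusted p of a member was 0.117, for Uqcrc1. The median log2 fold change was -0.28 over the members and -0.00 over all genes, and 41 members lay below 0, against 50.5% of all genes. In 8 members (Sdhc, Sdhd, Atp5b, Atp5g1, Atp5g2, Atp5h, Atp5j and Dmac2) all 4 PVP values lay below all 4 control values, against 4.92% of all genes.

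Promoters were compared because so many members lay lower together. Nuclear respiratory factor 1 (NRF1), ETS factors such as GABP, and YY1 are textbook regulators of respiratory genes. RefSeq windows on GRCm38.p6, from 250 bases before to 50 after a transcription start, were matched for 37 members (40 windows). The stretches shown are the last 120 bases before the start, 5′ to 3′ on the gene's strand: Sdhd chr9:50603850-50603969 (minus), Sdhb chr4:140961151-140961270 (plus), Cox6a1 chr5:115348959-115349078 (minus), Atp5g2 chr15:102671048-102671167 (minus), Atp5b chr10:128083187-128083306 (plus) and Atp5k chr5:108434400-108434519 (minus). Capitals mark the searched NRF1, ETS and YY1 letters. The first 5 belong to members that lay lower with PVP, and Atp5k, whose difference was 0.01, is shown beside Atp5g2 because both carry the same capitals.
Sdhd: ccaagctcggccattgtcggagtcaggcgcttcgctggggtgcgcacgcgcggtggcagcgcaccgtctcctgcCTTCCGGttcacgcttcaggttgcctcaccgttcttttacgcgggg
Sdhb: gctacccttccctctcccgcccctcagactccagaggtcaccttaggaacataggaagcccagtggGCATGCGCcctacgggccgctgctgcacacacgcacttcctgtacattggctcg
Cox6a1: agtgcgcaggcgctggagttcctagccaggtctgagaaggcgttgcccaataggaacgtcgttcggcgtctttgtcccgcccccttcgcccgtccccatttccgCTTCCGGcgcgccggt
Atp5g2: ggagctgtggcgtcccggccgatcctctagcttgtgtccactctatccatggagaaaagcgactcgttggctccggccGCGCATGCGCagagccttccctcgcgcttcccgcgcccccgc
Atp5b: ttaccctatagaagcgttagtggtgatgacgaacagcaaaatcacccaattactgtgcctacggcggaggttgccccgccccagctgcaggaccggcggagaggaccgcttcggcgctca
Atp5k: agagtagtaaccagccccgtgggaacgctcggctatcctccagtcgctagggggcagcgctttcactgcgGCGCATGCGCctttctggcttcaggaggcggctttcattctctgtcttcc
Sdhd and Cox6a1 hold the ETS letters, Sdhb holds the NRF1 letters, and Atp5b holds none of them in this stretch. Cox6a1 also holds NRF1 letters farther upstream. The NRF1 letters GCATGCGC or, on the other strand, GCGCATGC were in 8 of the 40 member windows (20%) and in 2.71% of all 32851 windows. In Atp5g2, Atp5k, Cox6a1 and Uqcrc1 both orientations overlap in 1 palindrome. The ETS letters CCGGAAG or CTTCCGG were in 13 (32.5%, against 8.86% of all windows), and the YY1 letters AAGATGGC or GCCATCTT in 5 (12.5%, against 2.75%). Windows with the SP1 letters GGGCGG or CCGCCC made up 37.5% and 35.7%, and those with CCAAT or ATTGG 52.5% and 37.4%. The member windows were somewhat richer in GC (median 56.2% against 52.7%).

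Between members that lay lower with PVP (22 windows of 19 genes) and the other tested members (16 windows of 16 genes), NRF1 letters were in 18.2% and 25%, and ETS letters in 36.4% and 31.2%. All 5 windows with YY1 letters belonged to lower members (Atp5j, Atp5j2, Atp5pb and both windows of Dmac2), and 0 of 16 windows of the others held them. The Dmac2 windows overlap and hold the same YY1 letters at the same place, so these letters are counted in both. Dmac2 also lies outside the complexes. These shares were not tested against each other, and letters in a window are a description, not a binding site.

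Complex II oxidises succinate through the flavoprotein Sdha and the iron-sulfur protein Sdhb, which the membrane anchors Sdhc and Sdhd hold at the ubiquinone site. All 4 were lower with PVP at an unadjusted p under 0.05, against 12.2% of all genes, with a median log2 fold change of -0.44. Sdhd read 12.76, 12.58, 12.91 and 13.28 in controls 1 to 4, 12.55, 13.06, 12.61 and 12.63 with citrate, and 11.61, 12.22, 12.52 and 12.13 with PVP. Every PVP value lay below every control and every citrate value, the female PVP 1 lowest. The PVP mean lay 1.69-fold below the controls (log2 fold change -0.76 ± 0.22 SE, limma adjusted p = 0.141). For Sdhb the control values were 10.27, 10.22, 10.59 and 10.44, the citrate values 10.21, 10.62, 10.33 and 10.33, and the PVP values 9.70, 9.75, 10.22 and 9.91. Here PVP 3 reached the lowest control and the groups touched, with a log2 fold change of -0.48 ± 0.14 (SE, limma adjusted p = 0.147). Sdha read 12.85, 12.63, 12.96 and 12.54 in controls, 12.46, 12.58, 12.59 and 12.52 with citrate, and 12.05, 12.13, 12.83 and 12.39 with PVP. The catalytic subunit thus had 1 PVP liver, PVP 3, inside the control range and 3 below it (-0.40 ± 0.13 SE, limma adjusted p = 0.175). Sdhc had 10.34, 10.43, 10.58 and 10.31 in controls, 10.33, 10.22, 10.19 and 10.07 with citrate, and 9.89, 10.01, 10.25 and 10.14 with PVP. No PVP liver overlapped the controls, and the citrate livers lay between and overlapped both (PVP -0.34 ± 0.12 SE, limma adjusted p = 0.177).

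Complex III is built on the core proteins Uqcrc1 and Uqcrc2, carries its electrons through the Rieske protein Uqcrfs1 and cytochrome c1 (Cyc1), and has the small subunits Uqcrb, Uqcrh, Uqcrq, Uqcr10 and Uqcr11. With PVP, 6 of the 9 were lower at an unadjusted p under 0.05, against 12.2% of all genes (median log2 fold change -0.33). Uqcrc1 read 12.48, 12.28, 12.73 and 12.30 in controls, 12.32, 12.42, 12.41 and 12.31 with citrate, and 11.37, 11.81, 12.28 and 11.88 with PVP. PVP 3 touched the lowest control, while the other PVP livers lay clearly below it. The difference was -0.61 ± 0.15 (SE, limma adjusted p = 0.117), or 1.53-fold. Uqcr10, a small subunit beside cytochrome c1, read 8.69, 8.73, 9.07 and 8.57 in controls, 8.46, 8.59, 8.76 and 8.72 with citrate, and 7.51, 7.64, 8.79 and 8.23 with PVP. Both PVP females lay far below all other livers, and the male PVP 3 lay inside the control range. Its difference was -0.72 ± 0.18 (SE, limma adjusted p = 0.119), and without PVP 3 it was -0.92 with an adjusted p of 0.0452, the sole member call for PVP against control among the fits that each left out 1 array. Cyc1, from which cytochrome c takes its electron, read 10.34, 10.03, 10.38 and 10.04 in controls, 10.14, 10.32, 10.31 and 10.24 with citrate, and 9.08, 9.53, 10.27 and 9.81 with PVP. PVP 3 again lay among the controls (-0.52 ± 0.17 SE, limma adjusted p = 0.166). Uqcrfs1 had 7.57, 7.81, 8.08 and 8.03 in controls, 7.79, 7.82, 7.94 and 8.08 with citrate, and 7.32, 7.54, 7.70 and 7.63 with PVP. The low control 1 made the groups overlap, and no PVP liver reached the citrate range (-0.33 ± 0.13 SE, limma adjusted p = 0.207). Uqcrc2 differed by -0.66 ± 0.17 (limma adjusted p = 0.119). At the other end Uqcr11 and Uqcrq both differed by -0.03, and their values overlapped throughout. Uqcrb, which helps hold ubiquinone, ran from 15.18 to 15.26 in controls and from 14.51 to 15.18 with PVP, and 1 value of 15.18 recurred unchanged on 4 arrays.

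Cytochrome c (Cycs) carries electrons from complex III to complex IV and also triggers apoptosis when released. Its values were 13.66, 12.88, 13.67 and 13.64 in controls, 13.89, 13.63, 13.81 and 13.48 with citrate, and 11.81, 13.00, 13.55 and 13.17 with PVP. PVP 1 was the lowest liver, and control 2 lay below 3 of the PVP livers. The difference from controls was -0.58 ± 0.30 (SE, unadjusted p = 0.0789, limma). The name of this probe set carries chromosome 19, where RefSeq places the gene on 6. The probe set on 6 gave -0.33 ± 0.20 (limma adjusted p = 0.353), with the same liver lowest at 10.07.

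Complex IV has tissue isoforms of several subunits, and the 17 members include the liver forms Cox6a1, Cox7a2 and Cox8a beside forms known from muscle (Cox6a2, Cox7a1, Cox8b), lung (Cox4i2) and testis (Cox6b2, Cox7b2, Cox8c). Cox8b, Cox6b2 and Cox6a2 averaged 2.92, 3.59 and 3.78, under the brightness limit of 3.93 for testing, while Cox7b2 (3.99) and Cox8c (4.07) lay just over it. Of the 14 tested members 3 were lower with PVP at an unadjusted p under 0.05 (Cox8a, Cox6a1 and Cox6b1). That is 21.4%, against 12.2% of all genes, and the median log2 fold change was -0.13. Cox8a read 13.54, 13.38, 13.71 and 13.39 in controls, 13.43, 13.35, 13.41 and 13.40 with citrate, and 12.95, 12.69, 13.41 and 13.22 with PVP. PVP 3 overlapped the controls and the other PVP livers lay below them (-0.44 ± 0.12 SE, limma adjusted p = 0.134). Cox6a1 had 13.18, 12.91, 13.16 and 13.21 in controls, 12.84, 12.95, 13.01 and 13.18 with citrate, and 12.11, 12.67, 13.13 and 12.55 with PVP. Its pattern was the same, with PVP 3 among the controls and PVP 1 lowest (-0.50 ± 0.17 SE, limma adjusted p = 0.173). Cox6b1, at the contact between the monomers of complex IV, read 15.22, 14.74, 15.20 and 15.00 in controls, 15.06, 14.86, 15.19 and 15.01 with citrate, and 14.23, 14.61, 15.03 and 14.91 with PVP. The PVP males lay among the controls and the PVP females below them (-0.35 ± 0.12 SE, limma adjusted p = 0.185). Cox5a had 11.24, 11.24, 11.52 and 11.02 in controls, 11.19, 11.18, 11.55 and 11.27 with citrate, and 10.65, 10.81, 11.21 and 11.27 with PVP. This matrix-side subunit showed the same split of PVP males and females, and its difference did not pass even unadjusted (-0.27 ± 0.12 SE).

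The isoform pairs of complex IV put the liver forms beside the others. Cox4i1, the common form of the regulatory subunit, read 6.81, 6.82, 6.96 and 6.77 in controls, 6.70, 6.76, 6.98 and 6.86 with citrate, and 6.78, 6.53, 7.11 and 6.89 with PVP, and the lung form Cox4i2 read 4.69, 4.60, 4.58 and 4.68, then 4.63, 4.66, 4.71 and 4.64, then 4.77, 4.33, 4.44 and 4.63. In both, PVP values lay on either side of the control range, with PVP minus control of -0.01 ± 0.09 and -0.09 ± 0.09 (SE). Cox7a2, the liver form, had 12.65, 12.53, 13.14 and 13.30 with PVP and is set out for the other groups under the citrate comparison (PVP minus control -0.02 ± 0.12), and its muscle partner Cox7a1 had 5.79, 5.77, 5.28 and 5.71 in controls, 5.44, 5.85, 5.85 and 5.59 with citrate, and 5.72, 5.34, 5.64 and 5.71 with PVP (-0.03 ± 0.14). Neither showed a PVP liver outside the range of the controls by more than the controls spread among themselves. The muscle form Cox6a2, untested, had 3.58, 3.95, 3.76 and 3.61 in controls, 3.67, 3.70, 3.63 and 3.91 with citrate, and 4.17, 3.86, 3.68 and 3.79 with PVP. Cox8b, the muscle partner of Cox8a, was also untested and dim everywhere, from 2.75 to 2.88 in controls, 2.88 to 3.13 with citrate and 2.92 to 3.18 with PVP. The lung, muscle and testis forms that could be tested had fold changes between -0.09 and 0.23 on the log2 scale. Whether complex IV differs from the other complexes was not tested.

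**Figure D2:**
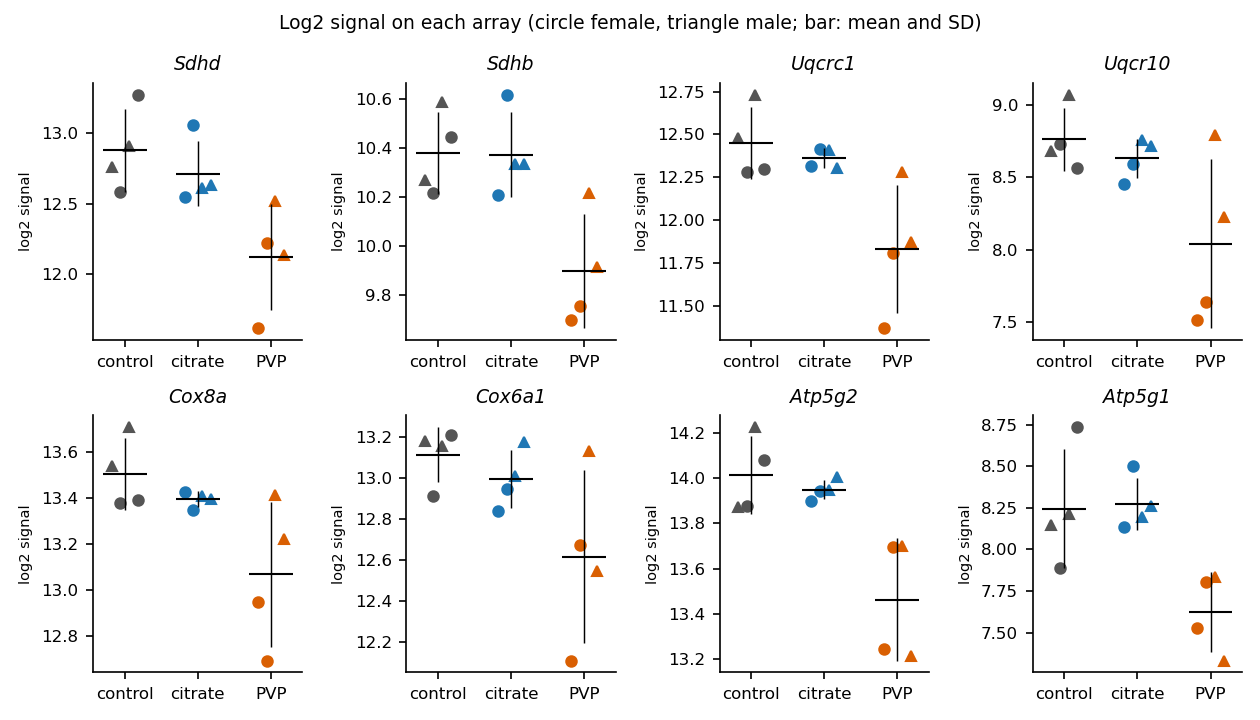
Log2 signal of 8 named members on each array, by group, with circles for females, triangles for males, and bars for the mean and SD of 4 mice. In Sdhd, Atp5g1 and Atp5g2 every PVP liver lies below every control, and in Uqcr10 the PVP females at 7.51 and 7.64 lie apart from the PVP males.

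ATP synthase couples a ring of c subunits in the membrane (Atp5g1, Atp5g2 and Atp5g3, which encode the same mature protein) to a catalytic head with the alpha and beta subunits Atp5a1 and Atp5b. With PVP, 10 of the 16 members were lower at an unadjusted p under 0.05, against 12.2% of all genes (median log2 fold change -0.29). In 5 of them all PVP livers lay below all controls, against 4.92% of all genes. Atp5g2 read 13.87, 13.88, 14.23 and 14.08 in controls, 13.90, 13.95, 13.95 and 14.01 with citrate, and 13.24, 13.70, 13.70 and 13.21 with PVP. The PVP livers lay below all 8 others, with PVP 1 and PVP 4 lowest. The difference from controls was -0.55 ± 0.14 (SE, limma adjusted p = 0.119), or 1.47-fold. Its other probe set, whose name carries chromosome 7 where the gene is on 15, gave means of 13.92 ± 0.14, 13.95 ± 0.06 and 13.53 ± 0.12 (SD, n = 4) in controls, citrate and PVP. Atp5g1 had 8.14, 7.89, 8.21 and 8.74 in controls, 8.13, 8.50, 8.20 and 8.26 with citrate, and 7.53, 7.80, 7.83 and 7.33 with PVP. Again no PVP liver overlapped the others, although control 4 stood well above the rest of its group (-0.62 ± 0.18 SE, limma adjusted p = 0.145). Atp5g3, the remaining c subunit gene, read 10.28, 10.31, 10.39 and 9.92 in controls, 10.19, 10.21, 10.38 and 10.39 with citrate, and 10.02, 9.47, 10.21 and 10.11 with PVP. These groups overlapped, with the low control 4 below 3 PVP livers (-0.27 ± 0.14 SE, limma adjusted p = 0.294).

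In the catalytic head Atp5b read 12.23, 12.23, 12.42 and 12.30 in controls, 12.37, 12.43, 12.31 and 12.33 with citrate, and 11.60, 11.87, 12.20 and 11.81 with PVP. The groups did not overlap, although PVP 3 came close to the lowest control (-0.42 ± 0.13 SE, limma adjusted p = 0.146). Its partner Atp5a1 differed by -0.17 ± 0.11 and overlapped. Atp5d, the delta subunit of the central stalk, differed by -0.56 ± 0.17 and Atp5e, the epsilon subunit beside it, by -0.06 ± 0.12. Of the peripheral stalk, which holds the head still, Atp5pb (subunit b) differed by -0.41 ± 0.15, Atp5h (d) by -0.31 ± 0.11, Atp5j (coupling factor) by -0.27 ± 0.09 and Atp5o, which caps the stalk, by -0.21 ± 0.12. The small membrane subunits went separate ways. Atp5mpl and Atp5md differed by -0.51 ± 0.19 and -0.49 ± 0.19 and Atp5j2 by -0.21 ± 0.07, whereas Atp5k (subunit e) and Atp5l (subunit g), which shape the dimer, differed by 0.01 ± 0.15 and 0.21 ± 0.14. The Atp5l probe set carries chromosome 5 in its name where the gene is on 9, and the probe set on 9 gave -0.14 ± 0.14. Outside the complexes Dmac2 differed by -0.25 ± 0.09, with no overlap, Cox7a2l by 0.08 ± 0.11 and Atp5l2-ps by 0.12 ± 0.15.

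The members did not move equally on all 4 PVP arrays. When each member was set against its mean over the 6 mice of that sex and the median taken over members, PVP arrays 1 to 4 stood at -0.31, -0.24, -0.04 and -0.16, controls at 0.01, 0.13, 0.14 and 0.11, and citrate arrays at 0.13, 0.15, 0.09 and 0.01. PVP 3 was thus nearest the controls and PVP 1 farthest from them. In 39 members the lowest liver of all 12 was a PVP liver, PVP 1 in 23 and PVP 2 in 14. Control 4 was lowest in 6 members (Atp5l, Atp5l2-ps, Cox7a2l, Cox7b, Uqcr11 and Uqcrq). How often each liver was lowest over all genes was not counted, so these counts have no share of all genes beside them. On PVP 1 the medians of the complexes differed, with complex II at -0.41, complex III at -0.51 and complex V at -0.41, but complex IV at 0.05. The complex IV median takes in the dim forms Cox7b2, Cox8c, Cox4i2 and Cox7a1 (means 3.99, 4.07, 4.62 and 5.64). PVP 1 was the lowest liver for Cox5a, Cox6a1, Cox6b1 and Cox7c. For Cox4i1, Cox4i2, Cox5b, Cox6c, Cox7a2, Cox8a and Cox8c it was PVP 2, and for Cox7a1, Cox7b and Cox7b2 a control or citrate liver.

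**Figure D3:**
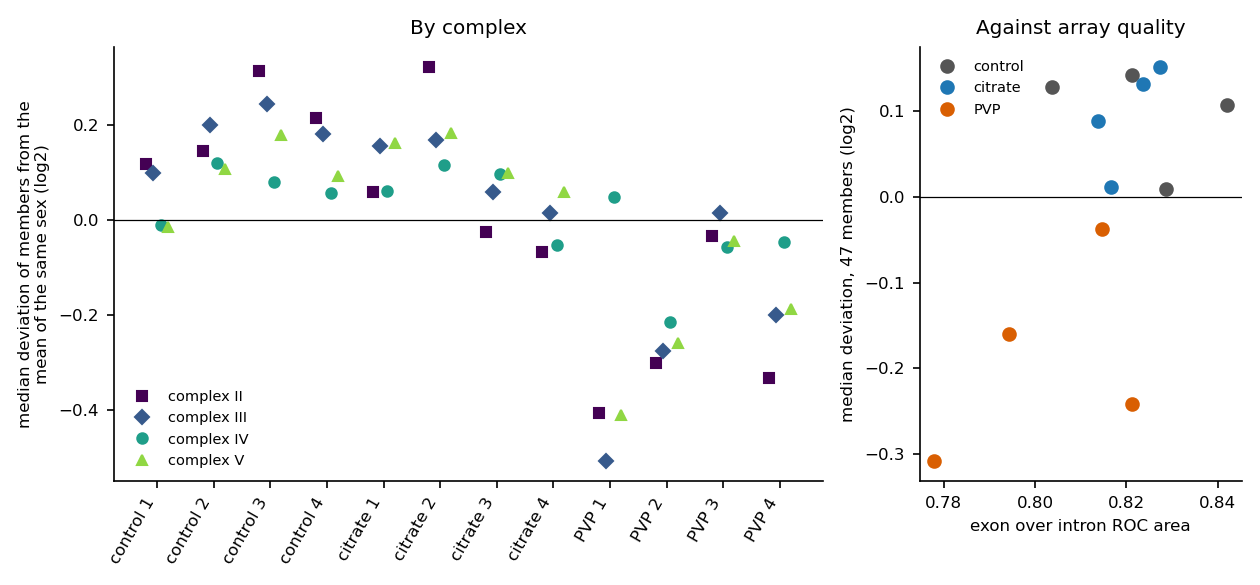
Left, median deviation (log2) of the members of each complex from the mean of the same sex on each array. Right, the median over the 47 members against the exon over intron area of the array, where the PVP arrays 1 and 4 have both low areas (0.778 and 0.794) and low medians, and PVP 2 has a low median at an area of 0.821.

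Array quality is set beside these values, and its part in them was not tested. Without the 2 arrays of lowest area, PVP 1 and PVP 4, 9 of the 47 members were lower than controls at an unadjusted p under 0.05, against 5.58% of all genes, with a median of -0.22. With the area as a covariate 14 were lower, against 6.67% of all genes, with a median of -0.23, and 20 were lower than with citrate, against 5.25%. The adjusted count was 0 with each. PVP 1 and PVP 4, with areas of 0.778 and 0.794, had their members at -0.31 and -0.16. PVP 2, with an area inside the control range, had its members at -0.24, and control 2, with an area of 0.804, had them at 0.13. Arrays also differ in overall level: centring each on its median, which shifted the median of all genes to -0.10, gave 28 lower members, against 17.5% of all genes lower and 4.17% higher, with a member median of -0.38.

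Markers of other liver cells are set beside these counts, each list as the log2 of its summed signal. Of the 10 Kupffer cell and macrophage markers 1 was higher with PVP at an unadjusted p under 0.05, against 8.05% of all genes. All 10 lay above 0 both with PVP (median log2 fold change 0.37) and with citrate (0.43), where 0 passed that threshold. Within each sex, with 2 mice a group, their medians with PVP and citrate were 0.76 and 0.66 in females, and -0.05 and 0.02 in males. Their summed level ran from 12.12 to 14.63 with PVP, 11.75 to 12.96 in controls and 11.81 to 13.49 with citrate. Of 8 tested neutrophil and monocyte markers 3 were higher with PVP and 0 with citrate, with summed levels of 9.58 to 12.73, 8.13 to 10.32 and 9.63 to 10.34 in the same order of groups. With PVP sinusoidal endothelial markers were lower in 3 of 10 (11.88 to 12.67 with PVP, 12.43 to 12.88 in controls). Stellate cell markers were lower in 3 of 10 (11.77 to 13.02 and 12.40 to 13.27), against 12.2% of all genes. With citrate 0 endothelial and 1 stellate cell marker were lower, against 3.82% of all genes. The part of these cells in the members' values was not tested. Skeletal and heart muscle markers, relevant to the muscle isoforms, summed to between 7.79 and 8.11 on all arrays.

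Against water, the citrate coating gave 0 of 47 members lower and 0 higher at an unadjusted p under 0.05 in limma, where 3.82% of all genes were lower and 2.75% higher. After adjustment 0 members passed, and 0.005% of all genes (1 gene). The median over the members was 0.02, and 21 lay below 0, against 49.6% of all genes. In 0 members did all citrate livers lie below all controls, against 2.37% of all genes. Complex II was the one complex with all 4 tested members below 0 (-0.21 to -0.01), in complex III 7 of 9 lay below 0, and in complexes IV and V 4 of 14 and 4 of 16 did. The largest difference was that of Cox7a2, the liver form of a complex IV subunit, with 12.96, 12.93, 13.20 and 12.62 in controls and 13.02, 12.90, 13.52 and 13.32 with citrate. The 2 citrate males were highest and the females lay inside the control range (0.26 ± 0.12 SE, limma adjusted p = 0.771). Atp5l had 13.95, 13.47, 13.95 and 13.12 in controls and 13.80, 13.53, 14.12 and 13.94 with citrate (0.22 ± 0.14 SE). The difference was 0.13 without the low control 4, and the Atp5l probe set on chromosome 9 gave 0.05 ± 0.14. Atp5mpl, a small proteolipid of the synthase, had 13.83, 13.39, 13.92 and 12.65 in controls and 13.58, 13.25, 13.87 and 13.71 with citrate, and its 0.16 ± 0.19 became -0.020 without control 4. In the other direction Uqcrq had 11.36, 11.25, 11.35 and 10.65 in controls and 10.92, 10.94, 11.06 and 11.05 with citrate (-0.16 ± 0.14 SE), so that 3 controls lay above all citrate livers and control 4 below them. For Cycs, Sdha, Sdhc and Cox8a, whose values stand above, citrate minus control was 0.24 ± 0.30, -0.21 ± 0.13, -0.21 ± 0.12 and -0.11 ± 0.12. With 1 array left out Cycs ranged from 0.092 (without citrate 1) to 0.40 (without citrate 4) and Cox8a from -0.17 (without citrate 1) to -0.063 (without citrate 4). The standard errors of the members ran from 0.07 (Atp5j2) to 0.30 (Cycs), and a p above the threshold does not show equal levels.

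The direct comparison of the coatings used no controls, but the PVP livers are the same as above, so it is no independent repeat. With PVP, 26 of 47 members were lower than with citrate at an unadjusted p under 0.05, against 8.72% of all genes, and 0 were higher, against 5.29%. After adjustment 0 members passed in limma, and 0% of all genes. The median of the members was -0.27 (-0.00 over all genes), and 40 lay below 0, against 50.2% of all genes. In 11 members all 4 PVP values lay below all 4 citrate values, against 4.84% of all genes. By complex, 2 of 4 in complex II, 6 of 9 in complex III, 6 of 14 in complex IV and 11 of 16 in complex V were lower, with Cycs as the last. Atp5b had the smallest adjusted p (-0.49 ± 0.13 SE, limma adjusted p = 0.247). Uqcrc1 differed by -0.53 ± 0.15, Cyc1 by -0.58 ± 0.17 and Atp5g1 by -0.65 ± 0.18 (limma adjusted p = 0.258 for each). Sdhb differed by -0.48 ± 0.14 (0.271), Cox6b1 by -0.34 ± 0.12 (0.322) and Cox8a by -0.33 ± 0.12 (0.323). Without PVP 1 and PVP 4 the count was 6, against 3.86% of all genes, with a median of -0.25. In a fit of the 2 coating groups alone the count was 20, against 7.78% of all genes, with a median of -0.27.

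Within each sex 2 mice a group remain. In females 21 members were lower with PVP than in controls at an unadjusted p under 0.05, against 8.43% of all genes (median -0.40) and 0 higher, against 4.58%, and in males 3 were (Atp5g2, Uqcrc1 and Uqcrc2), against 4.37%, and 0 higher, against 3.64% (median -0.19). In both sexes 0 members passed after adjustment in limma. The test of the difference between the sexes found 1 member lower in females at an unadjusted p under 0.05, against 1.91% of all genes, and 0 higher, against 1.71%. It was Uqcr10, at -1.08 ± 0.21 in females and -0.37 ± 0.21 in males (difference -0.70 ± 0.30 SE, unadjusted p = 0.0446, limma adjusted p = 1). Sdhd differed by -1.01 in females and -0.51 in males (difference -0.50 ± 0.43). Atp5g2 was alike in size in both sexes, with -0.51 and -0.59. For citrate the same test found 0 members lower, against 1.57%, and 0 higher, against 0.876%. PVP 1, the array of lowest area, is a female, and PVP 4, the next lowest, is a male.

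**Figure D4:**
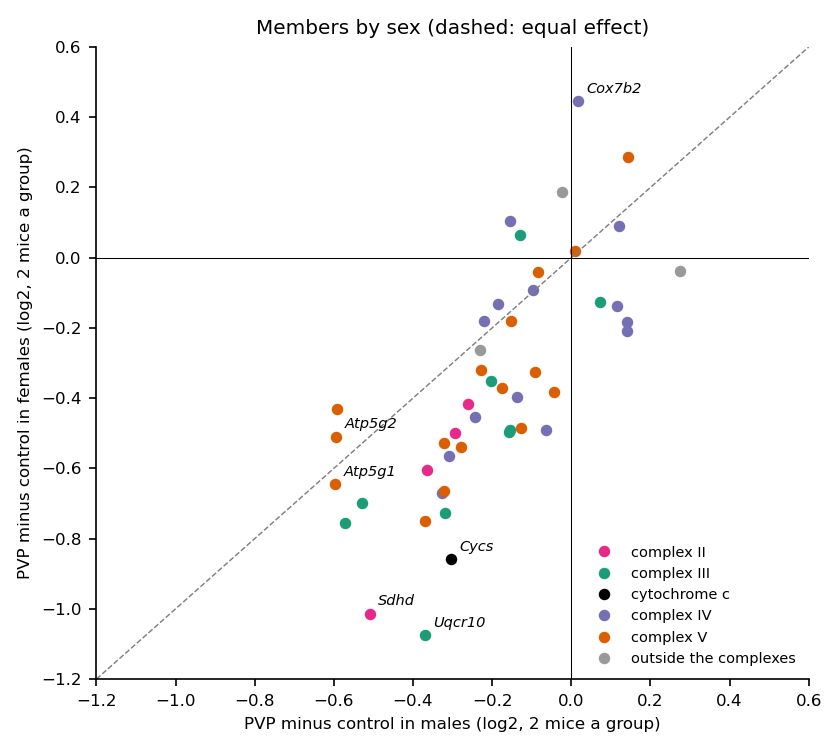
PVP minus control (log2) in females on the vertical axis against males on the horizontal axis for the 47 tested members, 2 mice a group in each sex, coloured by complex. Most points lie below the dashed line of equal effect, among them Uqcr10 (-1.08 in females, -0.37 in males), while Atp5g2 lies just above it.

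Sex itself was measured over 6 females and 6 males with the treatment in the fit. In limma 1 member passed after adjustment, against 2.18% of all genes. Cox7a2 ran from 12.53 through a median of 12.77 to 13.02 in females and from 12.96 through 13.25 to 13.52 in males. The sexes overlapped narrowly, and females lay 1.38-fold lower (-0.47 ± 0.10 SE, limma adjusted p = 0.0381). That call held in 2 of the 12 fits that left out 1 array (without control 1 and without control 2) and was lost in the other 10, with adjusted p up to 0.107, while the difference stayed between -0.53 and -0.43. At an unadjusted p under 0.05, 15 members were lower in females, against 8.93% of all genes, and 0 were higher, against 6.36%. All but 2 of the 47 lay below 0, against 57.1% of all genes. Atp5l (-0.51 ± 0.12, limma adjusted p = 0.0547, on the probe set named for chromosome 5) and Atp5mpl (-0.64 ± 0.15, 0.0642) came next.

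Other mitochondrial genes give the surroundings, from lists compiled with earlier results known. With PVP against controls 12.2% of all genes were lower at an unadjusted p under 0.05. Complex I subunits, whose complex feeds electrons from NADH, were lower at that threshold in 15 of 33 tested (median -0.18, lowest -0.95). Those with the smallest p were Ndufa3 (-0.69 ± 0.16, limma adjusted p = 0.0984), Ndufa8 (-0.66) and Ndufa10 (-0.63). TCA cycle enzymes, which supply the electrons, were lower in 10 of 16 (median -0.46), with Idh3g at -0.70, Mdh2 at -0.54 and Dlst at -0.69. Factors that assemble complexes II to V were lower in 13 of 37 (median -0.18). Among them the complex IV factor Higd2a read 12.65, 12.35, 12.91 and 12.53 in controls, 12.09, 11.82, 12.46 and 12.25 with citrate, and 11.56, 11.82, 12.32 and 11.95 with PVP. No PVP liver overlapped the controls (-0.70 ± 0.13 SE, limma adjusted p = 0.0683), and the citrate mean lay between those of the other groups, with its values overlapping both (-0.45, unadjusted p = 0.0059, limma adjusted p = 0.46). Taco1, which activates translation of a mitochondrial complex IV subunit, differed by -0.38 ± 0.09 (limma adjusted p = 0.0984), and Sdhaf2, which helps attach the flavin of Sdha, by -0.20 ± 0.05 (0.119).

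Outer membrane, import and carrier genes were lower in 8 of 18 (median -0.28), with the import motor subunit Timm44 at -0.36, the channel Vdac2 at -0.36 and the import pore Tomm40 at -0.39. Regulators of respiratory genes were lower in 3 of 15 (20%, against 12.2% of all genes, median -0.16). The 3 were the mitochondrial helicase Twnk (-0.50), Tfb1m (-0.59) and the mitochondrial transcription factor Tfb2m (-0.66). With citrate against controls, where 3.82% of all genes were lower, the counts were 1 of 33 for complex I and 0 of 16 for the TCA cycle. They were 4 of 37 for assembly, 0 of 18 for outer membrane and carriers, and 2 of 15 for regulators. Of the regulators 2 were also higher, against 2.75% of all genes. With PVP against citrate the counts, in the same order, were 14, 10, 9, 8 and 6, against 8.72% of all genes. None of these genes passed after adjustment in limma in any of the 3 comparisons. Of 5 tested mitochondrially encoded genes 0 were lower with PVP than in controls, but their signals were largely flat, with COX2 at 11.62 on 11 arrays. ND2 and ND6, complex I subunits, ran from 16.70 to 16.78 and 16.23 to 16.92 in controls and from 16.78 to 16.87 and 16.32 to 17.35 with PVP. Against citrate, where they ran from 16.43 to 16.79 and 15.85 to 17.03, both were higher with PVP at an unadjusted p under 0.05 (0.20 ± 0.07 and 0.66 ± 0.29 SE) and did not pass after adjustment in limma.

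**Figure D5:**
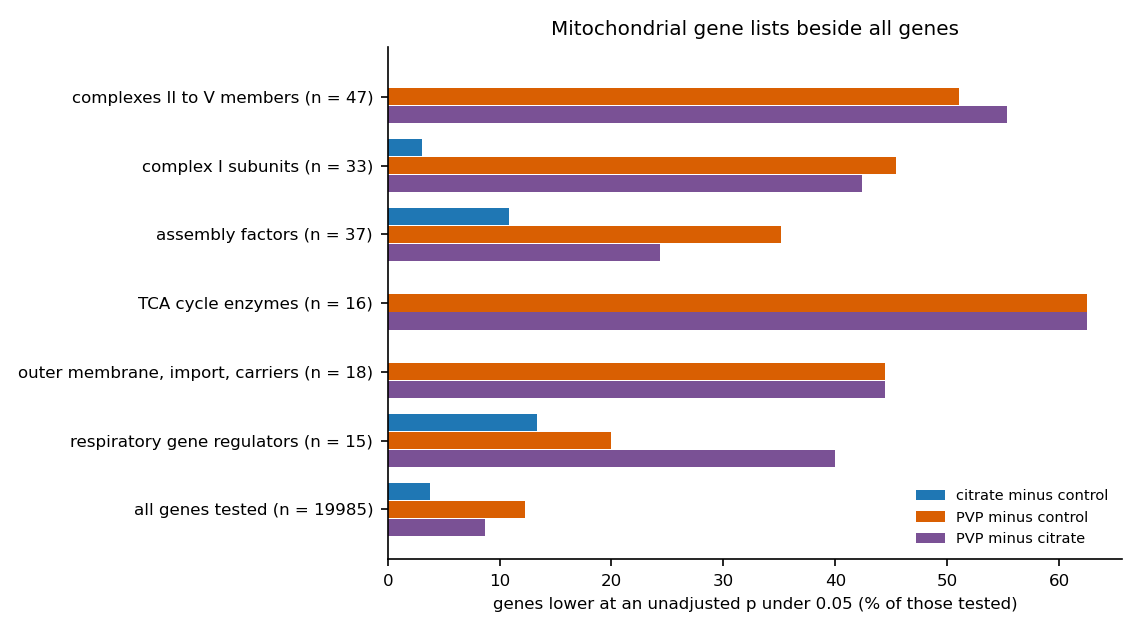
Share of tested genes (%) lower at an unadjusted p under 0.05 in each list and over all genes, for citrate minus control, PVP minus control and PVP minus citrate. The members stand at 51.1% for PVP minus control beside 12.2% of all genes, and at 0% for citrate minus control beside 3.82%.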

How the data were processed

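The authors deposited log2 signals for 72688 probe sets on 12 arrays. Named in the submitters' processing notes are Transcriptome Analysis Console 4.0.1.36 and RMA, with neither role nor order. Build and annotation are not given in the sources used here. Raw scans were not used here. Because values are capped at 19.93, changes of very abundant transcripts can be understated.

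Groups follow the labelled treatment, and titles number the mice, so replicates were taken as separate animals. Probe sets naming 1 symbol were kept (30604, against 2146 with several and 39938 with none), symbols were updated through RefSeq (1135), and the probe set with the highest mean stood for a gene. Of the probe sets with a chromosome in both sources, 99.7% carried the RefSeq chromosome in their name. Genes whose mean lay at or above the 40th percentile (3.93) were tested.

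One model with treatment and sex was fitted in limma 3.58.1 (R 4.3.3; trend and moderated variances) over all 19985 genes, with Benjamini-Hochberg adjustment over all of them and a threshold of 0.05. The fit was tested on simulated data. A second model with group by sex means gave the values within each sex. The comparisons of both coatings with water share the 4 controls. Fold changes are fitted differences of means.

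Members, lists and tests were chosen with earlier results of these data known. Named members were, per complex, the 2 with the smallest p in each treatment comparison, beside the main catalytic subunits and the isoform pairs; in other lists, the 3 with the smallest p for PVP against control. Alternatives covered the filter, centring, quantile normalization, probe set choice, sex term, quality area, replicate block, the 2 groups alone, array weights, a robust fit and each array left out. The choice of probe sets on the RefSeq chromosome was added after seeing the data.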

Additional observations from a re-analysis of the deposited data

Results flagged for a closer look

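In 9 of 147 group and member combinations 1 liver stood apart from the other 3 of its group by more than the critical gap of Dixon's test, where chance alone would give about 1 in 20. Control 4 was low for Cox5b (11.20, others 11.88 to 12.01) and Uqcrq (10.65, others 11.25 to 11.36). Control 3 was high for Atp5pb (10.36, others 10.15 to 10.18) and low for Cox7a1 (5.28, others 5.71 to 5.79). Control 2 was low for Cycs (12.88, others 13.64 to 13.67). Citrate 2 was high for the complex II anchor Sdhd (13.06, others 12.55 to 12.63) and the complex III core protein Uqcrc2 (13.20, others 12.87 to 12.91). PVP 2 was low for Cox5b (11.19, others 11.72 to 11.80) and for Atp5k (6.94, others 7.55 to 7.64).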

How the results depend on the processing

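No member passed adjustment in the 3 treatment comparisons under any alternative other than the fits leaving out 1 array, where PVP against control gave 0 to 1 members. The 24 members lower with PVP than in controls, against 12.2% of all genes, became 14 with the quality area in the model, against 6.67%. They became 9 without PVP 1 and PVP 4 (the arrays of lowest area), against 5.58%. With 1 array left out they were 18 to 26, against 8.60% to 14.4% of all genes. The median over all 47 tested members, -0.28, became -0.38 with centred arrays, and lay between -0.33 and -0.25 with 1 array left out. The 26 members lower than with citrate, against 8.72% of all genes, became 6 without PVP 1 and PVP 4, against 3.86%. With 1 array left out they were 16 to 28, against 5.57% to 10.9% of all genes. The count was 16 without citrate 2 and 17 without citrate 1 or PVP 1, and the median over the tested members ran from -0.32 to -0.23. For citrate against control the leave-one-out count was 0 to 1 (1 without control 1 or control 4), against 2.60% to 4.51% of all genes. The median ran from -0.03 to 0.03, and Atp5mpl turned from 0.16 to -0.020 without control 4 (up to 0.26 without control 2). Between the sexes the adjusted count of 1 became 0 with group by sex means, centring, quantile normalization, the replicate block and without PVP 1 and PVP 4, 2 with the 60th percentile filter, 4 with the area, 3 with array weights and 2 with the robust fit (0 to 2 with 1 array left out). The 15 members lower in females, against 8.93% of all genes, became 8 with quantile normalization, against 5.53%. They became 23 with the area, against 12.2%, and 2 with the replicate block, against 5.87%. With 1 array left out they were 10 to 20, against 7.19% to 11.5% of all genes. The titles give same-numbered mice a shared number and do not say what it means. Some of these pairs differ in sex. After group and sex were fitted, the correlations of same-numbered arrays ran from -0.44 to 0.23. Whether they shared a batch was not tested. With the replicate block 24, 18 and 0 members were lower for PVP against control, PVP against citrate and citrate against control. The shares of all genes were 10.3%, 6.93% and 3.46%. Cox7a2 between the sexes had a limma adjusted p of 0.512 with the block. Replicate 2 held only females and replicate 3 only males, so that fit estimated sex from replicates 1 and 4 alone. Apart from this limit of the block and the fewer arrays where some were left out, the causes of these shifts were not tested. The 4 mice a group limit every value.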
